A study of Mus musculus with 9 samples.

Results

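The genes around NRF2, the transcription factor that switches on antioxidant defence, were read in 9 RNA sequencing libraries of mouse mammary tumors. The set of 10 was chosen by name in the deposited count table, and 10 of 10 were found among its 55403 gene entries. They comprise the factor itself (Nfe2l2), its inhibitor Keap1 and 8 antioxidant and detoxifying targets, Nqo1, Hmox1, Gclc, Gclm, Txnrd1, Srxn1, Slc7a11 and Gsr. The tumors came from female C57BL/6 mice that carried the MMTV-PyMT oncogene and the MUC1.Tg transgene. KO mice, Hspa1a/Hspa1b-/-, aged 120 to 125 days, gave 5 libraries, and WT mice, Hspa1a/Hspa1b+/+, aged 122 to 132 days, gave 4. Hspa1a and Hspa1b encode HSP72, the stress-inducible HSP70 chaperone, and the study set tumors that lack it against tumors that have it. The transgenic promoter MMTV drives the oncogene mainly in mammary epithelium, and both groups carry it. The tumors were digested with collagenase and trypsin and washed before RNA was taken, so every library is bulk RNA of a cell suspension. The labels do not say that each sample is a separate mouse, so every p-value reflects sample-to-sample spread, which may in part be technical. Within a genotype the ages differ except that WT 3 and WT 4 share 124 days, and KO 3 and KO 5 share 120 days.

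Under basal conditions KEAP1 holds NRF2 in the cytoplasm and presents it to a ubiquitin ligase for degradation. Oxidants and electrophiles modify cysteines of KEAP1, NRF2 escapes, pairs with small MAF proteins in the nucleus and binds antioxidant response elements in its target genes. The pathway is controlled mostly at the level of NRF2 protein, so messenger RNA of its targets is a more usual readout than that of Nfe2l2. In breast tumors the pathway supplies glutathione, reduced thioredoxin and NADPH.

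The core of the antioxidant response element, TGACNNNGC, was looked for on both strands of the RefSeq promoter windows of GRCm38.p6, which run from 250 bases before to 50 bases after a gene's start. Windows were found for 7 members, Nfe2l2, Srxn1, Slc7a11, Gclm, Nqo1, Keap1 and Txnrd1, 9 windows in all. The core was present in 4 of these 9 windows, and in 12.39% of all 32850 windows of 300 bases. It is a short pattern, so a match is a description of the letters and not a binding site, and a window without it says nothing of elements further away. Whole windows are shown for Nqo1 and Gclm, whose RNA levels followed each other most closely, and for Srxn1, the member with the smallest unadjusted p. Capitals mark the core on either strand.
Gclm, chr3:122245307-122245606, plus strand: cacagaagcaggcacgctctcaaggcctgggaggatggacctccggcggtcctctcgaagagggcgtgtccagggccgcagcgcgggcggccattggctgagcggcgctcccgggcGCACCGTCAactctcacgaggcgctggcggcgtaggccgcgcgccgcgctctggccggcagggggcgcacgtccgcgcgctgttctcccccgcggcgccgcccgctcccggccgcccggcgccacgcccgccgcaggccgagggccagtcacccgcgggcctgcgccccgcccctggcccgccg
Nqo1, chr8:107403156-107403455, minus strand: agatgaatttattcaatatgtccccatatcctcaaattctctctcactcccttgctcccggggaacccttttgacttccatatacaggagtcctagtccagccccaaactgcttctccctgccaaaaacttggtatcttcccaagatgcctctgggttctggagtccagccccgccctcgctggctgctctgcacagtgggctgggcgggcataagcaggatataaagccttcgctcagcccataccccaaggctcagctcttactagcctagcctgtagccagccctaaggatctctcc
Srxn1, chr2:152105274-152105573, plus strand: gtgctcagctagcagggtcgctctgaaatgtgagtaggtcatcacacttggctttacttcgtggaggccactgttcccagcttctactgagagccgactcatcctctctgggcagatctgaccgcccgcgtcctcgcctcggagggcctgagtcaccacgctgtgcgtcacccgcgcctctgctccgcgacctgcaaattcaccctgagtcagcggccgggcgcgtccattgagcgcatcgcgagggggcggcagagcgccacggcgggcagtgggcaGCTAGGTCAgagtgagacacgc

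The Gclm core lay 134 bases before the start, on the strand opposite to the gene, and the Srxn1 core 28 bases after the start, also on the opposite strand. The window of Nqo1 held none. The other matches lay 240 bases before the start of Nfe2l2, on the gene's own strand, and 92 bases before 1 of the 3 starts of Txnrd1, on the opposite strand. They are shown with their flanks, the core in capitals.
Nfe2l2, chr2:75704895-75704903 for the core: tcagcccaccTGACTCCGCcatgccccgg
Txnrd1, chr10:82859114-82859122 for the core: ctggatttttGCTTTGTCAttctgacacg

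The targeted genes matched the labels. Hspa1b stood at 0.203 ± 0.269 CPM in KO (SD, n = 5) and 55.0 ± 22.3 CPM in WT (SD, n = 4), and Hspa1a at 0.789 ± 0.578 CPM in KO and 7.36 ± 2.66 CPM in WT. They are near-identical copies, so the split of reads between them is uncertain. CPM is the count scaled by the library total over tested genes after TMM adjustment. Libraries held 4973540 to 6221181 gene counts in KO and 4410399 to 5709054 in WT. Markers of luminal mammary epithelium (Epcam, Krt8, Krt18 and 5 others) summed to 3146 to 4250 CPM in KO and 3385 to 6920 CPM in WT, so the labelled tissue was present in every library. In bulk RNA fewer cells of a type and less RNA per cell cannot be told apart.

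None of the members passed the test between genotypes. With edgeR (quasi-likelihood F test, p adjusted by Benjamini-Hochberg over 14665 genes, threshold 0.05), 0 of the 9 members tested were called, where 0.0886% of all genes tested were called. DESeq2 also called 0 of 9, where it called 0.464% of all genes, and limma-voom called 0 of 9. In each of the 3 tools 1 member had an unadjusted p under 0.05, where edgeR gave 7.95% of all genes. In no member did the KO and WT libraries separate without overlap, which 2.7% of all genes tested did. The tenth member, Slc7a11, was too scarce for the count filter.

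Most fold changes were negative, without any call. Of the 9 members tested, 8 had a negative log2 fold change, with a median of -0.20, where 50% of all genes tested were negative and their median was -7.8e-05. Without WT 2 the members' median was -0.096 and 6 of 9 were negative. With age as a covariate 6 of 9 were also negative, and WT 2, at 132 days, is the oldest sample. Markers of stromal cells and of milk secretion are given beside these values. The 9 fibroblast markers summed to 203 to 423 CPM in KO and 541 to 747 CPM in WT, without overlap. Singly only 2 of the 9 lay without overlap, Col1a1 and Col1a2, which had the highest levels. Fap alone had a positive log2 fold change, 0.35 ± 0.33 (SE). The 7 milk protein genes summed to 2454 to 8029 CPM in KO and 3376 to 16727 CPM in WT. Of these, 7 had negative log2 fold changes, with a median of -3.32, and 0 were called by edgeR. An unadjusted edgeR p under 0.05 was found for 6, where 4.59% of all genes tested had one with a negative fold change. Without WT 1 and WT 4 together 2 of 7 were negative and the median was 0.11. Endothelial markers summed to 27.5 to 82.9 CPM in KO and 63.0 to 151 CPM in WT, and basal markers to 71.3 to 113 CPM in KO and 80.1 to 117 CPM in WT. Of 5 adipocyte markers, Lpl, which other cells also express, averaged 13.6 ± 4.94 CPM in KO (SD, n = 5) and 31.5 ± 12.4 CPM in WT (SD, n = 4), while Fabp4 averaged 4.01 ± 1.11 CPM in KO and 4.10 ± 2.58 CPM in WT, and Plin1, Adipoq and Cidec each averaged under 3 CPM in both groups. T and NK cell markers stood at 2.63 to 18.6 CPM in KO and 5.48 to 11.5 CPM in WT, and neutrophil markers at 3.43 to 25.8 CPM in KO and 4.82 to 11.9 CPM in WT. Their part in the members' values was not tested.

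**Figure D1:**
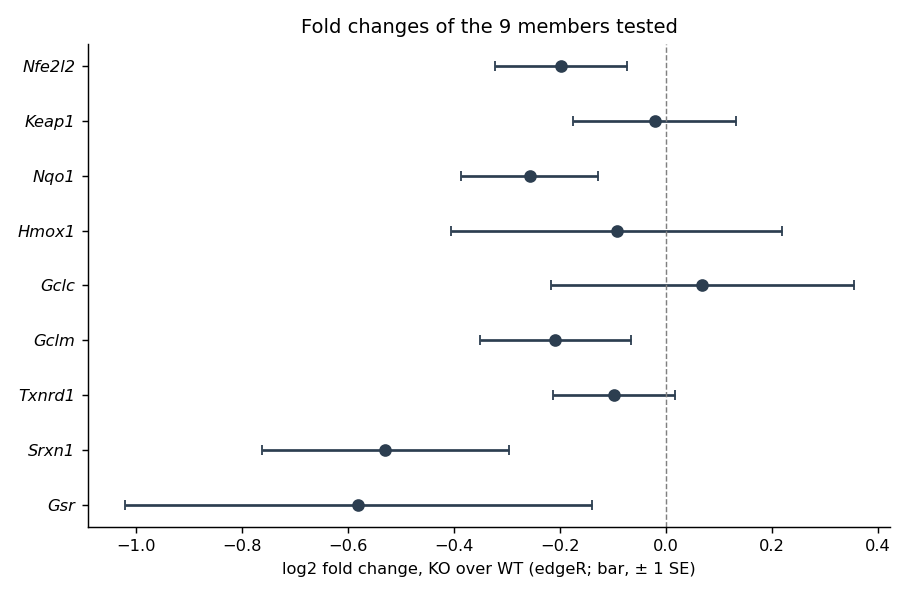
Log2 fold change, KO over WT, of the 9 members tested, from Nfe2l2 at the top to Gsr at the bottom, with bars of 1 SE either side. Only Gclc lay above 0, and the widest bar, ± 0.44, belonged to Gsr.

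**Figure D2:**
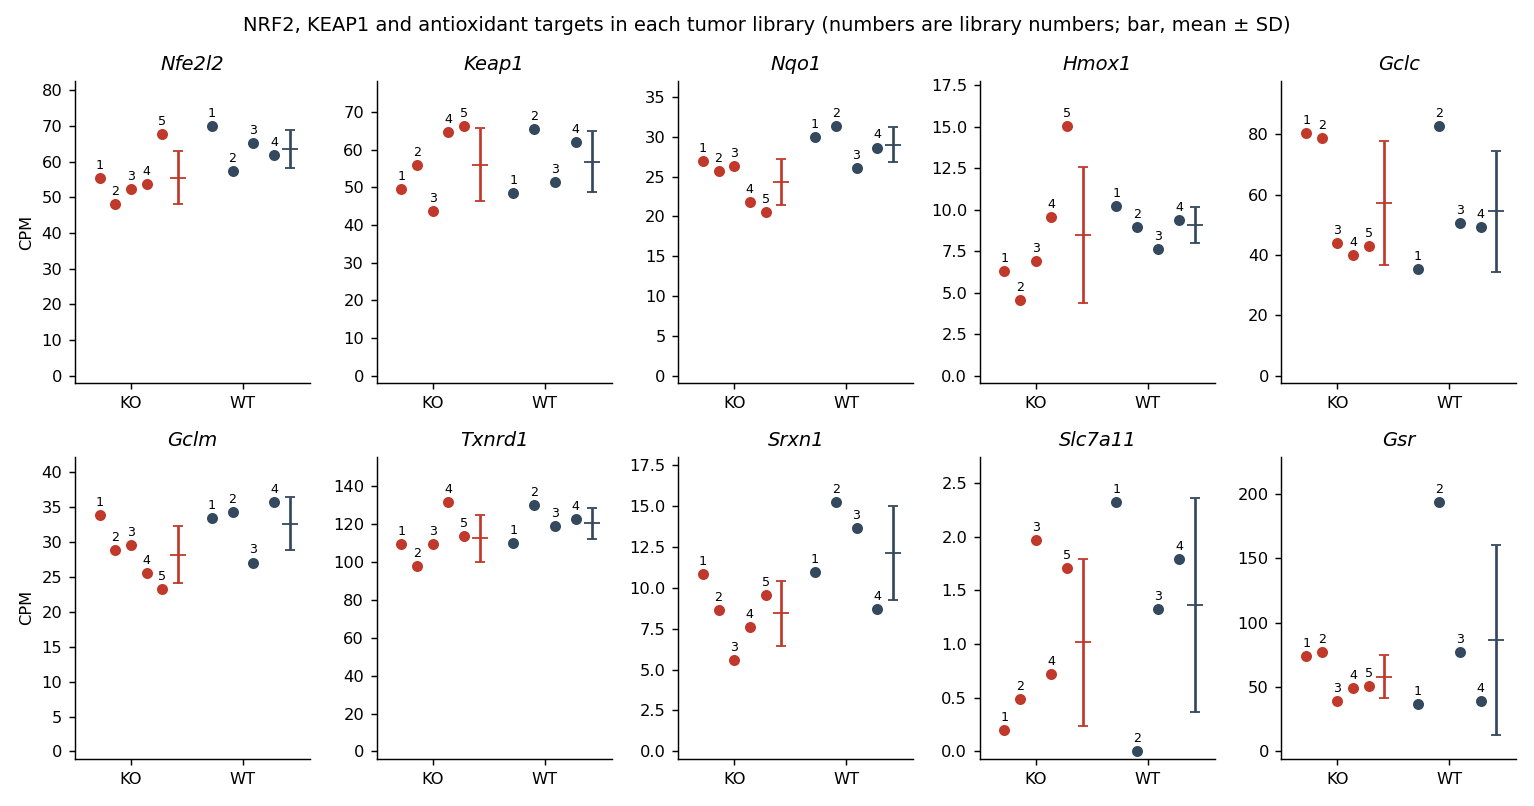
Level in CPM of each member in every library, KO on the left of each panel and WT on the right, with library numbers above the points and bars for mean ± SD. The groups overlap in all 10 panels, and Gsr in WT 2, at 194 CPM, stands above every other library.

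Nfe2l2, which encodes NRF2, is ENSMUSG00000015839.6 on chromosome 2 (75675513 to 75704641, minus strand, GRCm38). It stood at 55.4, 48.2, 52.2, 53.6 and 67.9 CPM in KO 1 to KO 5, against 70.0, 57.3, 65.3 and 61.8 CPM in WT 1 to WT 4. In 4 of the 5 KO libraries the level lay below the lowest WT library, while KO 5 was second only to WT 1. The means were 55.5 ± 7.42 CPM in KO (SD, n = 5) and 63.6 ± 5.40 CPM in WT (SD, n = 4). The log2 fold change was -0.20 ± 0.12 (SE; edgeR adjusted p = 0.697), which did not pass. It was -0.28 without KO 5 and -0.15 without WT 1.

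Keap1 encodes the adaptor that brings NRF2 to the CUL3 ubiquitin ligase, and is ENSMUSG00000003308.15 on chromosome 9 (21229730 to 21239361, minus strand). It stood at 49.6, 56.1, 43.7, 64.6 and 66.3 CPM in KO 1 to KO 5, against 48.6, 65.6, 51.3 and 62.0 CPM in WT 1 to WT 4. Both groups covered nearly the same range. Its log2 fold change was -0.02 ± 0.15 (SE; edgeR adjusted p = 0.982), with either sign among the fits that left out 1 library. The antisense gene Gm16754 covers 10.9% of the exon bases of Keap1, and reads there cannot be told apart, because no source used here says how strand was treated in counting. Gm16754 had 18 counts over all libraries, against 2717 for Keap1.

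The NADPH-dependent quinone reductase gene Nqo1 is a standard marker of NRF2 activity. It lies on chromosome 8 (ENSMUSG00000003849.8, 107388225 to 107403206, minus strand). It stood at 27.0, 25.7, 26.3, 21.8 and 20.5 CPM in KO 1 to KO 5, against 29.98, 31.4, 26.1 and 28.6 CPM in WT 1 to WT 4. KO 2, KO 4 and KO 5 lay below all WT libraries, and WT 3 lay among the KO values. The means were 24.3 ± 2.90 CPM in KO (SD, n = 5) and 29.0 ± 2.25 CPM in WT (SD, n = 4), and the log2 fold change came to -0.26 ± 0.13 (SE; adjusted p = 0.647 by edgeR). An exact two-sided permutation test of the means gave an unadjusted p of 0.0476, the lowest among the 10 members, where the smallest that 5 against 4 libraries allow is 0.00794. On CPM from plain totals the exact permutation p of Nqo1 was 0.151, and among the 9 tests that left out 1 library it stayed under 0.05 only without WT 3.

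Gclm encodes the modifier subunit of glutamate-cysteine ligase, the enzyme of the rate-limiting step of glutathione synthesis, and Gclc its catalytic subunit. Gclm (ENSMUSG00000028124.15, chromosome 3, 122245557 to 122270732, plus strand) stood at 33.9, 28.8, 29.6, 25.6 and 23.3 CPM in KO 1 to KO 5, against 33.5, 34.3, 27.1 and 35.8 CPM in WT 1 to WT 4. KO 4 and KO 5 lay below all WT libraries, and KO 1 lay among the highest. Its log2 fold change was -0.21 ± 0.14 (SE; edgeR adjusted p = 0.715). Part of the Gclm exons shares sequence with Gm17494, on the opposite strand, and with Ppia-type pseudogenes such as Gm6061 (4.7% and 3.88% of its exon bases overlap these 2 genes), so its counts are uncertain to that extent.

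Gclc varied between tumors more than between genotypes. It is ENSMUSG00000032350.9 on chromosome 9 (77754535 to 77794485, plus strand). It stood at 80.4, 78.9, 44.0, 39.9 and 43.1 CPM in KO 1 to KO 5, against 35.4, 82.8, 50.7 and 49.2 CPM in WT 1 to WT 4. KO 1, KO 2 and WT 2 stood near 80 CPM, and the other 6 at 35.4 to 50.7 CPM. The means were 57.2 ± 20.5 CPM in KO (SD, n = 5) and 54.5 ± 20.1 CPM in WT (SD, n = 4), and the log2 fold change was 0.07 ± 0.29 (SE; edgeR adjusted p = 0.963). It was 0.34 without WT 2 and -0.089 without WT 1.

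Glutathione reductase, encoded by Gsr, returns oxidized glutathione to its reduced form with NADPH. Gsr (ENSMUSG00000031584.16, chromosome 8, 33652523 to 33698163, plus strand) stood at 73.7, 77.2, 39.2, 49.5 and 51.0 CPM in KO 1 to KO 5, against 36.7, 194, 77.4 and 39.2 CPM in WT 1 to WT 4. WT 2 stood far above every other library, and WT 1, WT 3 and WT 4 spread over the KO range and slightly past both its ends. The means were 58.1 ± 16.5 CPM in KO (SD, n = 5) and 86.8 ± 73.7 CPM in WT (SD, n = 4). The log2 fold change, -0.58 ± 0.44 (SE; edgeR adjusted p = 0.737), had the largest size among the 9 members tested. It rested on WT 2: leaving that library out gave 0.18, and adding age to the model gave 0.42. Leaving out WT 1 and WT 4 together gave -1.22 ± 0.33 (SE; unadjusted p = 0.00399, edgeR adjusted p = 0.704).

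The cystine-glutamate exchanger gene Slc7a11, which supplies cysteine for glutathione and is also a target of ATF4, was barely detected. Its counts (ENSMUSG00000027737.10, chromosome 3, 49892526 to 50443614, minus strand) were 1, 3, 12, 4 and 10 in KO 1 to KO 5, against 10, 0, 8 and 8 in WT 1 to WT 4, 56 in all. A count of 0 in WT 2 allows up to 0.617 CPM on plain totals, without TMM, taken as 3 counts of that library and covering counting error only. The means were 1.02 ± 0.779 CPM in KO and 1.36 ± 0.995 CPM in WT, a difference smaller than either SD (two-sided exact permutation p = 0.571). One stretch of its exons resembles alpha-tubulin genes, so these few counts are uncertain.

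Txnrd1 encodes cytosolic thioredoxin reductase, the selenoprotein that keeps thioredoxin reduced, and had the most counts of the members. Txnrd1 (ENSMUSG00000020250.10, chromosome 10, 82833951 to 82897712, plus strand) stood at 109, 97.9, 110, 132 and 114 CPM in KO 1 to KO 5, against 110, 130, 119 and 123 CPM in WT 1 to WT 4. KO 4 was the highest and KO 2 the lowest of all libraries, so KO enclosed the whole WT range. Its log2 fold change, -0.10 ± 0.11 (SE; adjusted p = 0.844 by edgeR), had the smallest SE among the members.

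Sulfiredoxin, encoded by Srxn1, repairs peroxiredoxins whose active cysteine has been overoxidized. Srxn1 (ENSMUSG00000032802.8, chromosome 2, 152105516 to 152111376, plus strand) stood at 10.8, 8.64, 5.58, 7.58 and 9.57 CPM in KO 1 to KO 5, against 10.9, 15.3, 13.6 and 8.73 CPM in WT 1 to WT 4. KO 2, KO 3 and KO 4 lay below all WT libraries and none lay above WT 1, while WT 4 lay among the KO values. The means were 8.44 ± 2.00 CPM in KO (SD, n = 5) and 12.1 ± 2.89 CPM in WT (SD, n = 4). The log2 fold change was -0.53 ± 0.23 (SE), with an unadjusted p of 0.0440 and an edgeR adjusted p of 0.616. It ran from -0.66 without WT 4 to -0.40 without WT 2. With 34 to 82 counts per library, Srxn1 is among the less deeply counted members.

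Heme oxygenase, encoded by Hmox1, breaks heme down to biliverdin, iron and carbon monoxide, and in tissues is abundant in macrophages that take up red cells. Hmox1 (ENSMUSG00000005413.8, chromosome 8, 75093621 to 75100589, plus strand) stood at 6.30, 4.56, 6.90, 9.57 and 15.0 CPM in KO 1 to KO 5, against 10.2, 8.99, 7.64 and 9.40 CPM in WT 1 to WT 4. KO held both the 3 lowest libraries and the highest, KO 5. The log2 fold change was -0.09 ± 0.31 (SE; edgeR adjusted p = 0.954), with -0.40 once KO 5 was left out and 0.067 once KO 2 was. The 13 macrophage markers, all of them detected, summed to 378, 331, 272, 413 and 683 CPM in KO 1 to KO 5, against 822, 567, 520 and 783 CPM in WT 1 to WT 4. All 12 that were tested had negative log2 fold changes, with a median of -0.57, and 0 were called (2 had an unadjusted p under 0.05 in edgeR). That count was 10 of 11 tested without KO 5, where the median was -0.90, and 7 with age as a covariate. It was 1 without WT 4, with a median of -0.42. Without WT 1 and WT 4 together it was 1 of 13, with a median of -0.26. Over all genes tested, in either direction, such a p was found for 1166 of 14665 in the main fit. It was found for 1281 of 14411 without KO 5 and for 1903 of 14665 with age. Without WT 4 it was found for 1299 of 14963, and without WT 1 and WT 4 for 775 of 15352. The 5 erythroid markers summed to 20.0 to 109 CPM in KO and 46.7 to 173 CPM in WT, and KO 5 was the highest KO library for both lists. Their part in the Hmox1 values was not tested.

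Per kilobase of exon the members formed 3 tiers. Mean levels over the 9 libraries were 25.7 ± 17.8 CPM per kilobase for Gsr, 17.0 ± 2.26 for Nqo1, 16.4 ± 1.54 for Txnrd1, 15.6 ± 1.99 for Nfe2l2, 14.9 ± 5.06 for Gclc and 12.03 ± 1.81 for Keap1 (SD, n = 9). Within this tier each gene exceeded the next in 5 to 7 of 9 libraries, so neighbours did not differ beyond their spread. Keap1 exceeded Hmox1, at 4.99 ± 1.703 CPM per kilobase, in 9 of 9 libraries. Hmox1 was above Gclm (4.80 ± 0.696 CPM per kilobase) in 4 of 9, and Gclm above Srxn1 (3.58 ± 1.06 CPM per kilobase) in 8 of 9. Srxn1 exceeded Slc7a11, at 0.084 ± 0.060 CPM per kilobase, in every library.

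**Figure D3:**
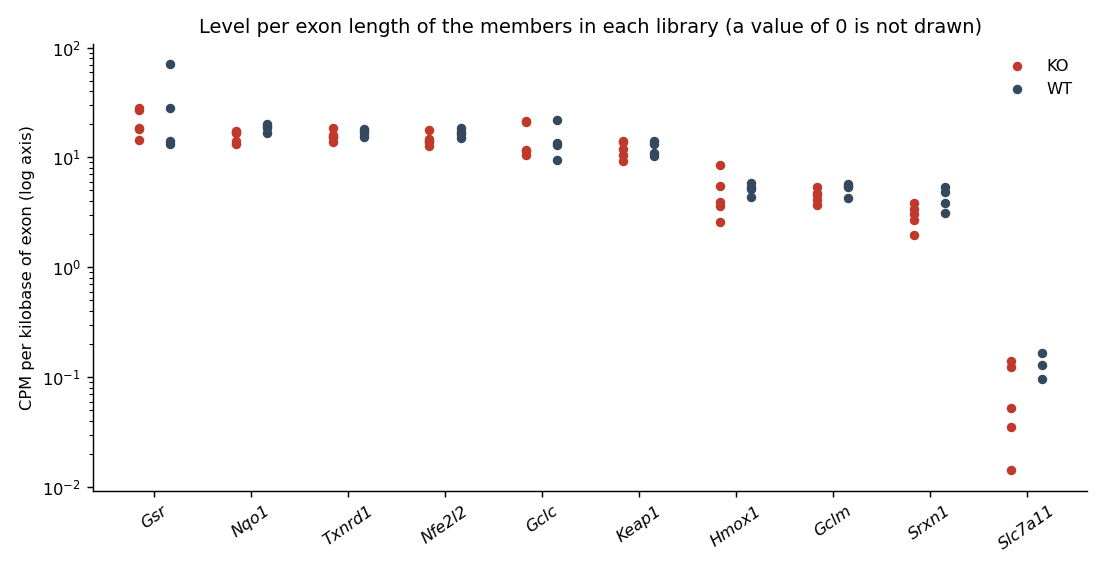
Level of each member in CPM per kilobase of exon, on a log axis, ordered by the mean over 9 libraries, with KO left of WT. Slc7a11 lies below every other member in every library, and its value of 0 in WT 2 is not drawn.

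Spread between tumors differed widely among the members. Over all 9 libraries the coefficient of variation of CPM was 9.41% for Txnrd1, 12.8% for Nfe2l2, 13.3% for Nqo1, 14.5% for Gclm and 15.0% for Keap1. It was 29.6% for Srxn1, 34.0% for Gclc, 34.1% for Hmox1 and 69.2% for Gsr, and 71.9% for Slc7a11, where counting error is large. WT 2 held the highest value of 4 of the 9 members tested, Nqo1, Gclc, Srxn1 and Gsr, while it was highest for 12.6% of all genes tested. That library was singled out after its values were seen. It was also highest in the luminal marker sum, at 6920 CPM, against 3385 to 5090 CPM in WT 1, WT 3 and WT 4, and the part of those cells in the values was not tested.

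Levels of Nqo1 and Gclm followed each other across tumors. Of the 36 pairs of members tested, this was the single pair whose Pearson correlation of log2 CPM passed, with r = 0.91 (exact permutation p = 0.000320, Benjamini-Hochberg adjusted over 36 pairs to 0.0115). Spearman's rho was 0.90 (exact permutation p = 0.00203, adjusted to 0.0730). With group means removed r was 0.89. Without KO 4 and KO 5, the libraries farthest from the median of Nqo1, r was 0.75 over 7 libraries (exact permutation p = 0.0581), so the relation rests in part on them. The adjusted exact permutation p was 0.102 without KO 4 and 0.151 without KO 5, and 0.0607 on plain totals, where r was 0.89. The points share library size and scaling, and no batch is named in the labels.

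No other pair passed. The 8 pairs with Gclc get no pooled correlation, because its libraries fall into separate clusters. They stay among the 36 pairs of the adjustment, and 0 of the 8 passed it. Of the remaining 28 pairs, 21 had r above 0, with a median of 0.23 and a range of -0.31 to 0.91. Between Nfe2l2 and Hmox1 r was 0.76 (exact permutation p = 0.0158, adjusted to 0.189) and rho 0.73 (exact permutation p = 0.0311, adjusted to 0.373). Without KO 2 and WT 1, the libraries farthest from the median of Nfe2l2, that r was 0.62 (exact permutation p = 0.130). For Nfe2l2 and Nqo1 r was 0.042 (exact permutation p = 0.911, adjusted to 0.969) and rho 0.22 (exact permutation p = 0.581, adjusted to 0.909). With group means removed the r of Nfe2l2 and Nqo1 was -0.62, a value given without a test.

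**Figure D4:**
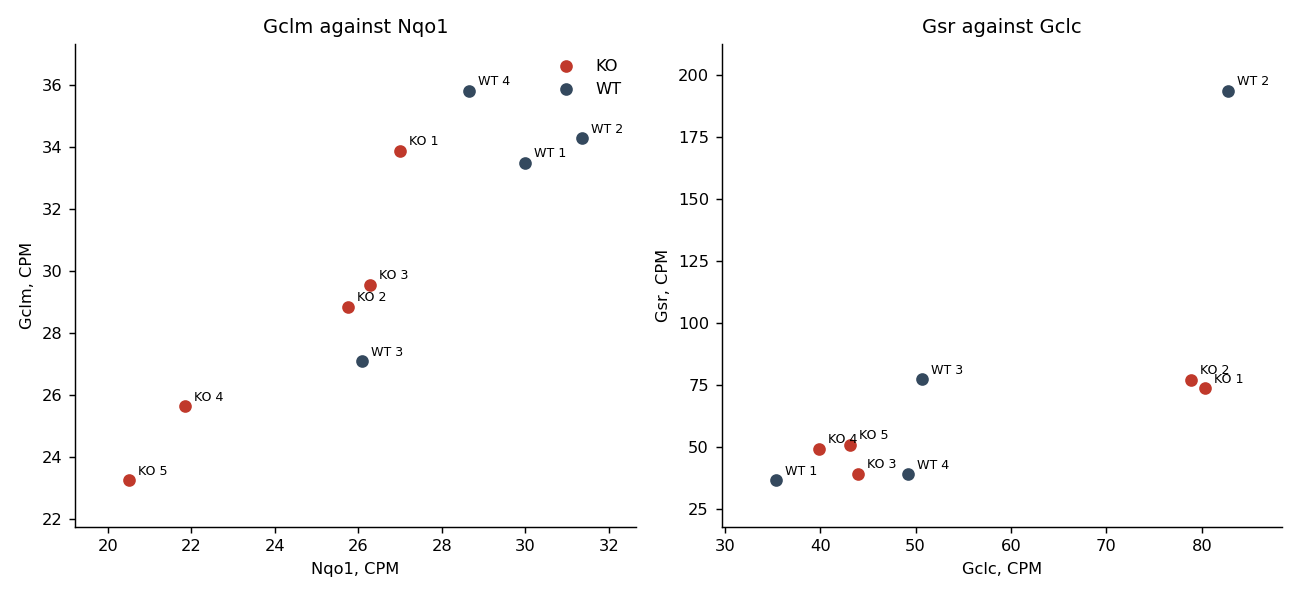
Left, Gclm against Nqo1 in CPM, and right, Gsr against Gclc in CPM, with 1 point per library. Gclm and Nqo1 are lowest together in KO 5 and KO 4, and Gclc is near 80 CPM in KO 1, KO 2 and WT 2, the last of which also has the highest Gsr.

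Genes outside the list whose pattern was most like the mean of the 9 members, each scaled to equal variance, were taken by rank. Med22, Nars, Efnb1 and F13a1 had Pearson r of 0.97, 0.97, 0.95 and 0.95 with that mean over 9 libraries. They lead 14583 genes ranked, of which 0.1% had r above 0.930, and a top rank selects high values. The mean was highest in WT 2 and lowest in KO 3.

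A further 78 genes, in 6 lists, gave the wider setting and are called pathway genes below, and 69 of them were tested. The lists also take in linked processes, among them the ATF4 arm of the amino acid response, with 9 genes tested. In edgeR 0 of these 69 were called in either direction, where 0.0546% of all genes tested were called higher in KO and 0.0341% lower. DESeq2 and limma-voom also called 0 of 69. An unadjusted p under 0.05 was found for 12 with a negative fold change (17.4%, where 4.59% of all genes tested had one) and for 0 with a positive one (where 3.36% had one), and 53 of 69 (76.8%) had a negative log2 fold change. The count of 12 was 5 without KO 1, 7 without KO 2 and 6 without WT 1 and WT 4, and without WT 2 43 of 70 were negative and the median of -0.18 became -0.12. Every KO library lay below every WT library for 5 of the 69 (7.25%), where 1.26% of all genes tested did so, and above it for 0, where 1.44% did. These 5 were Pgd, Taldo1, Txn1, Cat and, from the list of the ATF4 arm, Slc7a5.

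**Figure D5:**
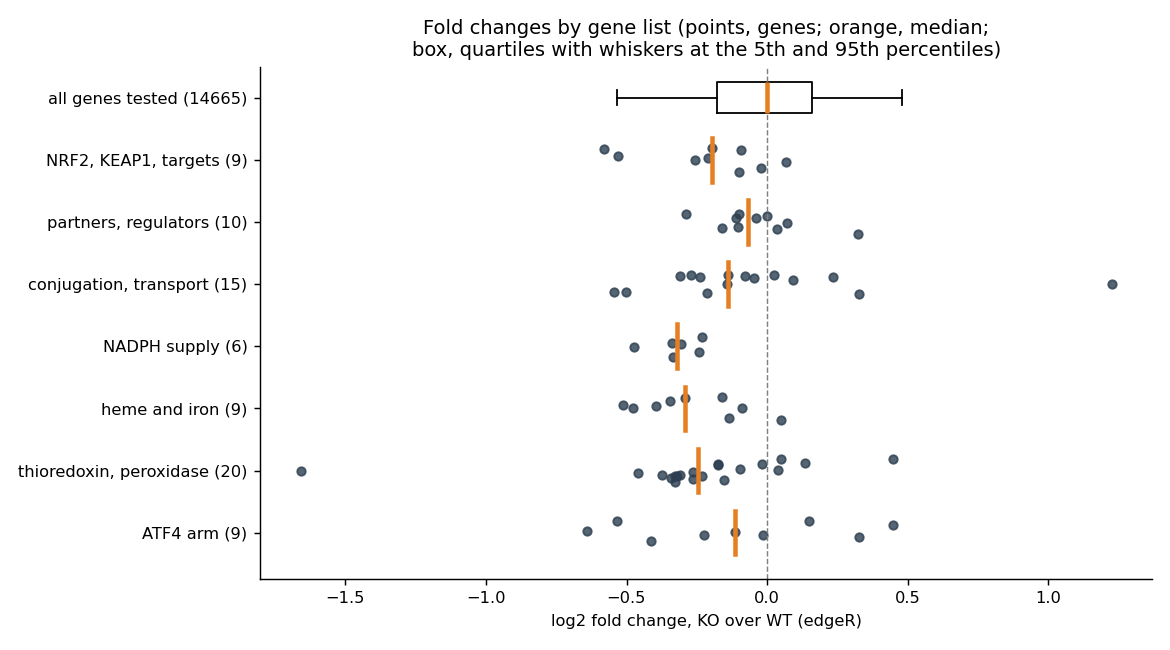
Log2 fold change, KO over WT, of each gene tested, by list, with the median of each list in orange and, at the top, the box of all 14665 genes tested. The 6 genes of the NADPH supply list all lie left of 0, while the partners and regulators of NRF2 have a median of -0.068.

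Genes of the pentose phosphate pathway and of NADPH supply, on which glutathione reductase and thioredoxin reductase draw, had negative values in 6 of 6. They had a median log2 fold change of -0.32, 3 with an unadjusted p under 0.05 and 0 called by edgeR. The count of 3 was 1 without KO 1 and 1 with age as a covariate, and 5 of 6 were negative without WT 2 or with age. Phosphogluconate dehydrogenase (Pgd), of the pentose phosphate pathway, stood at 148, 142, 117, 149 and 141 CPM in KO 1 to KO 5, against 156, 190, 168 and 189 CPM in WT 1 to WT 4. Its groups did not overlap, and its log2 fold change was -0.34 ± 0.12 (SE; edgeR adjusted p = 0.616). Transaldolase (Taldo1), of the same pathway, stood at 77.0, 85.1, 68.1, 89.2 and 99.9 CPM in KO 1 to KO 5, against 102, 104, 113 and 105 CPM in WT 1 to WT 4. It also did not overlap, by a narrow margin between KO 5 and WT 1 (-0.34 ± 0.12 SE; edgeR adjusted p = 0.616). Malic enzyme (Me1) and transketolase (Tkt) had log2 fold changes of -0.31 ± 0.12 and -0.23 ± 0.12 (SE), with overlapping groups. Glucose-6-phosphate dehydrogenase (G6pdx), named after its values were seen, stood at 31.4 to 64.2 CPM in KO, while WT 2 had 130 CPM, and WT 1, WT 3 and WT 4 had 32.7 to 38.3 CPM.

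Among 20 tested genes of thioredoxin, peroxiredoxin, glutathione peroxidase and superoxide metabolism, 16 had negative log2 fold changes, with a median of -0.25. EdgeR called 0 and 4 had an unadjusted p under 0.05. The count of 4 was 2 without KO 1, 2 without WT 2 and 6 without KO 5, and 13 of 20 were negative without WT 2 or with age as a covariate. Thioredoxin (Txn1), the substrate of Txnrd1, stood at 49.4, 41.6, 55.3, 51.6 and 55.1 CPM in KO 1 to KO 5, against 64.2, 61.7, 65.3 and 62.9 CPM in WT 1 to WT 4. The groups were separate and the log2 fold change was -0.33 ± 0.11 (SE; edgeR adjusted p = 0.616). Catalase (Cat), which breaks down hydrogen peroxide, stood at 72.7 to 92.3 CPM in KO and 92.6 to 103 CPM in WT (-0.26 ± 0.11 SE). The peroxiredoxins Prdx1 and Prdx5 had log2 fold changes of -0.37 ± 0.14 and -0.34 ± 0.12 (SE). Extracellular glutathione peroxidase (Gpx3), named after its values were seen, stood at 48.1, 551, 18.6, 20.0 and 44.97 CPM in KO 1 to KO 5, against 91.4, 1602, 21.9 and 10.7 CPM in WT 1 to WT 4. It was thus far above all others in WT 2 and KO 2.

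Heme breakdown and iron handling, in which Hmox1 acts, had 8 of 9 genes negative. The median of these log2 fold changes was -0.29, with 2 having an unadjusted p under 0.05 and 0 called by edgeR. That count was 0 without KO 2, 0 without WT 1, 1 without KO 1, KO 4 or WT 4, and 4 without WT 2. The median was -0.19 without WT 1 and -0.15 without WT 1 and WT 4. Ferritin heavy chain (Fth1), which stores iron, averaged 268 ± 56.7 CPM in KO (SD, n = 5) and 383 ± 96.3 CPM in WT (SD, n = 4). Its log2 fold change was -0.51 ± 0.20 (SE; edgeR adjusted p = 0.616) and its groups overlapped. The heme transporter Slc48a1 had -0.39 ± 0.17 and the ferritin light chain Ftl1 -0.34 ± 0.23 (SE). Ferritin genes have many processed pseudogenes, so their counts are uncertain. Macrophages carry much ferritin, and their marker sums, given above, were lower in most KO libraries, and their part was not tested. The transferrin receptor Tfrc had -0.48 ± 0.37 (SE), at 94.7 to 178 CPM in KO, and 75.7 to 337 CPM in WT, WT 1 being the highest of all.

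Conjugation, transport and xenobiotic enzymes showed no common sign. Of 22 listed, 15 were tested, 10 negative and 5 positive. Their median log2 fold change was -0.14, with 0 called by edgeR, 0 also having an unadjusted p under 0.05. The sign of the median rested on WT 2, without which it was 0.013 with 7 of 15 negative, and with age as a covariate it was -0.033. It was -0.090 without KO 1, -0.071 without KO 4 and -0.040 without KO 5. The glutathione transferase Gsta4, which conjugates lipid peroxidation products and lies near Gclc on chromosome 9, stood at 10.4, 11.9, 2.79, 1.26 and 3.42 CPM in KO 1 to KO 5, against 0.930, 5.64, 2.33 and 1.12 CPM in WT 1 to WT 4. It was highest in KO 1, KO 2 and WT 2, the libraries in which Gclc stood near 80 CPM. Its log2 fold change was 1.23 ± 0.69 (SE; edgeR adjusted p = 0.671). The carbonyl reductases Cbr1 and Cbr3 had -0.24 ± 0.15 and -0.54 ± 0.41, and the microsomal transferase Mgst1 -0.31 ± 0.23 (SE).

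Partners and regulators of NRF2 comprised 10 genes, all tested. Of these, 7 were negative, the median being -0.068 (log2), and 0 were called by edgeR. That median was -0.029 without KO 2, -0.026 without WT 2, -0.11 without KO 4 and 0.00072 with age as a covariate. Only the related factor Nfe2l1, which drives proteasome genes, had an unadjusted p under 0.05, at 377 ± 25.03 CPM in KO (SD, n = 5) and 461 ± 69.4 CPM in WT (SD, n = 4) (-0.29 ± 0.13 SE; edgeR adjusted p = 0.616). The repressor Bach1, which competes for antioxidant response elements, had -0.11 ± 0.11, the autophagy receptor Sqstm1, which can sequester KEAP1, -0.10 ± 0.11, and the small MAF gene Maff 0.32 ± 0.34 (SE).

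The ATF4 arm of the amino acid response, which shares Slc7a11 with NRF2, had 6 of 9 members tested negative and a median log2 fold change of -0.11, with 0 called by edgeR and 2 under an unadjusted p of 0.05. Without WT 1 that median was 0.0095 with 5 of 10 negative. The count filter then passed 10 genes in place of 9, and the part of the added gene was not separated from that of WT 1. The median was -0.028 without WT 4 and -0.070 without WT 2, also over 10 genes, and -0.067 without KO 3. The count of 2 was 1 without KO 1, KO 2, KO 3, WT 1 or WT 3. It was 0 without WT 1 and WT 4 together, where the median was -0.023. The leucine transporter gene Slc7a5 stood at 44.1, 52.1, 46.0, 51.6 and 53.0 CPM in KO 1 to KO 5, against 97.0, 58.1, 60.2 and 93.3 CPM in WT 1 to WT 4. The groups were separate, and WT 1 and WT 4 lay far above WT 2 and WT 3 (-0.64 ± 0.17 SE; edgeR adjusted p = 0.470). Asparagine synthetase (Asns) had -0.53 ± 0.23, the serine synthesis gene Phgdh 0.45 ± 0.21 and Trib3 -0.41 ± 0.25 (SE). Immediate early genes, which respond to tissue dissociation, summed to 307 to 757 CPM in KO and 538 to 1036 CPM in WT, and 8 of 8 were negative with a median of -0.31 and 0 called by edgeR, 0 also under an unadjusted p of 0.05. With age as a covariate 4 of the 8 immediate early genes were negative and the median was -0.014, and it was -0.14 without WT 2 and -0.15 without KO 3. Their part in the members' values was not tested.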

How the data were processed

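RNA sequencing of 5 KO and 4 WT mammary tumor samples was analysed, grouped by the titles in the labels. The authors deposited raw counts per gene and library. Trimmomatic 0.36, FastQC 0.11.5, STAR 2.5.4a and GRCm38 were used, per the submitters' processing notes; the annotation release and the way strand was handled: not given in the sources used here. Entries naming no gene were left out: 11.0% to 27.1% unmapped, 5.50% to 9.53% multimapped, 34.0% to 50.4% without a feature and 0.971% to 1.23% ambiguous. Of 55401 mouse identifiers, 55141 matched a symbol. KO was compared with WT by glmQLFit and glmQLFTest of edgeR 4.0.16 (R 4.3.3), with TMM, filterByExpr and genotype as the only term, called under an adjusted p of 0.05. DESeq2 1.42.0, limma-voom (limma 3.58.1), other scalings, count filters, age, the library number, a threshold of 0.1 and each library left out were alternatives. The fit with the library number left out KO 5, which has no WT library of its number. The pair WT 1 and WT 4, highest in casein counts, was left out together as an alternative chosen after seeing the data. The SE is the size of a log2 fold change over the square root of F. Log2 CPM for correlations used a prior count of 2, and Slc7a11 was left out of them. On simulated data for KO against WT with 200 of 14665 genes changed, edgeR recovered 79 at 2-fold with 7 false calls, and 183 at 4-fold with 9. The members and lists were chosen with earlier results of these data known. Named genes are all members, up to 4 per list by smallest unadjusted p, and the 5 most alike genes among those averaging log2 CPM 1 or more. A gene that this last rule names is not reported here.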

Additional observations from a re-analysis of the deposited data

How the results depend on the processing

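Calls of members and of pathway genes were 0 under all 18 alternatives and under a threshold of 0.1. The number of genes called over the table was 13, and it was 68 by DESeq2, 29 without a count filter, 6 where the mean count had to reach 50, and 6 to 13 over the fits lacking 1 library. The log2 fold change of Keap1 was 0.0046 with upper-quartile factors and 0.11 with age as a covariate, and it ran from -0.088 to 0.058 with 1 library left out. That of Gsr was 0.42 with age as a covariate and ran from -0.83 to 0.18, and without WT 1 and WT 4 those of Hmox1, Gclc and Gsr were 0.027, -0.22 and -1.22. With 1 library left out Hmox1 ran from -0.40 to 0.067 and Gclc from -0.089 to 0.34. None of these was called in any fit, and the cause of each change of sign was not tested. The number of members with an exact permutation p under 0.05 was 1 (Nqo1), 0 on plain totals and 0 to 1 with 1 library left out. The number of correlated pairs was 1, 0 on plain totals and 0 to 1 with 1 library left out. Library numbers are shared by KO and WT labels. Of the libraries numbered 1 to 4, 5 of 8 correlated best with their own number, among 4 candidates each. Same-numbered libraries did not all deviate together (r of -0.024 to 0.38). Whether the numbers pair the libraries was not tested. With the library number as a replicate block, a fit that also left out KO 5, 9 genes, 0 members and 0 pathway genes were called. The median of the conjugation and transport list was 0.0040 in that fit, and -0.040 without KO 5 and with no block. At 56 counts over 9 libraries, depth limits what can be said of Slc7a11.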
